A study of Mus musculus with 38 samples.

Results

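The transcription factor ATF4 and the genes that supply cells with amino acids were followed across 38 mouse RNA-seq libraries of naive, primed and transitional pluripotent cells. The set holds 38 of the 29267 genes in the expression tables. Its members were chosen by gene symbol, from common knowledge of ATF4 and its targets. No threshold on a measured value entered the choice, but earlier results of these data were known when it was made. There were 7 regulators (Atf4, Atf5, Ddit3, Cebpb, Cebpg, Trib3 and Nupr1), 7 enzymes of serine, folate and proline synthesis (Phgdh, Psat1, Psph, Shmt2, Mthfd2, Aldh18a1 and Pycr1) and 4 enzymes of asparagine, cysteine and glutathione metabolism (Asns, Cth, Cbs and Chac1). The others were 9 amino acid transporters (Slc7a1, Slc7a3, Slc7a5, Slc7a11, Slc3a2, Slc38a2, Slc6a9, Slc1a4 and Slc1a5), 7 cytosolic tRNA synthetases (Aars, Gars, Nars, Sars, Wars, Cars and Yars) and 4 genes of growth control, secretion and the cell surface (Sesn2, Eif4ebp1, Stc2 and Vldlr). All 38 members passed the filter on low counts in each of the 3 models fitted here.

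ATF4 is the main effector of the integrated stress response. When amino acids run short, haem is lacking, double-stranded RNA appears or proteins misfold in the endoplasmic reticulum, kinases phosphorylate the initiation factor eIF2, general translation slows and the ATF4 message is translated more. ATF4 then pairs with other basic leucine zipper proteins, among them C/EBP factors, and binds composite C/EBP-ATF elements near genes that make, import and charge amino acids. Because much of this control acts on translation, the level of Atf4 mRNA is not a measure of ATF4 protein, which was not measured here.

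The reference groups were naive embryonic stem cells (ESC, 5 libraries) kept with LIF and the inhibitors PD0325901 and CHIR99021, and primed epiblast stem cells (EpiSC, 4 libraries) kept with Activin A and bFGF. A stable EpiSC line overexpressing Klf4 (kEpiSC, 2 libraries) was moved into the chemically defined medium iCD1 for the primed to naive transition (PNT) and sampled on days 1, 2 and 3 (2 libraries each). Parallel cultures in iCD1 received the JNK inhibitor SP600125 (JNKi) and gave 2, 3 and 2 libraries on those days. JNK phosphorylates c-Jun, the product of Jun, and the labels give no dose of the inhibitor. The naive cells that came out of the transition were the kiPSC group (2 libraries). A last experiment used EpiSC-like cells induced from wild-type (WT) or c-Jun knockout (JunKO) ESCs. It held 1 iEpiSC and 1 kiEpiSC library per genotype before the transition, and 2 libraries per genotype on day 3 in iCD1 and 2 on day 3 in iCD1 with JNKi. All its day 3 libraries were titled kiEpiSC, a name the paper does not define, and their Klf4 levels are given below. The kEpiSC cells carried a selected lentiviral Klf4 transgene and an Oct4-GFP reporter, so Klf4 was overexpressed throughout their transition and the controls carried the transgene too. In JunKO cells a pair of guides removed the single coding exon of Jun. ESC replicates 1 and 2 were labelled CBA/CaJ X C57BL/6J, and the other libraries carried no strain label. The paper names another cross for its ESC and EpiSC lines, with males of the OG2 (Oct4-GFP) reporter strain. Strain may thus differ between those 2 ESC libraries and the EpiSC. Nothing in the labels says whether libraries of a group came from separate cultures. State and time changed together at each step of the transition, and the medium changed with them on entering iCD1, so these cannot be told apart. The labels do not give the medium of kiPSC. In bulk RNA, fewer cells of a type and less RNA per cell cannot be told apart either.

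Totals ran from 2164711 to 15944950 estimated counts per library. The labels were checked against genes fixed as markers, in TPM, a length-scaled transcript share that sums to 1000000 in each library. Jun was at 5.01 to 14.62 TPM in the 6 JunKO libraries and at 40.39 to 240.39 TPM in the 6 WT libraries. The summed TPM of 8 naive markers was 1376.95 to 2056.20 in ESC and 1238.31 to 1906.77 in kiPSC, against 4.95 to 11.47 in EpiSC and kEpiSC. It was only 37.80 to 63.87 on PNT day 3, when Pou5f1 and Sox2 summed to 76.75 to 77.45 TPM against 2048.66 to 2093.48 in kEpiSC, so the bulk of the day 3 culture held neither pluripotent profile. Klf4 was at 65.19 to 102.61 TPM in kEpiSC and 0.52 to 1.94 in EpiSC. It was also at 36.26 and 36.61 TPM in the JunKO and WT iEpiSC libraries. In the JunKO and WT kiEpiSC libraries Klf4 was at 40.06 and 62.59 TPM before the transition, and at 45.45 to 131.17 TPM on day 3. The second transition thus also ran with Klf4 well above its EpiSC level. Markers of fibroblasts, a possible trace of feeder cells, summed to 476.86 TPM in ESC replicate 5 and to no more than 42 in the other ESC libraries. ESC replicates 1 to 4 also stood apart in processing: the gap from transcript length to effective length was 73.48 to 73.49 bases in those 4, while in the remaining 34 libraries it was 133.05 to 192.14. The part of either in the members' values was not tested.

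Promoters were searched for TGATGNAA on either strand, the core of the C/EBP-ATF element, in the 300 bases from 250 before to 50 after each annotated start (RefSeq, GRCm38.p6). A promoter was given for 30 of the 38 members. The motif stood in 11 of these (36.7%) and in 1219 of all 27025 promoters (4.51%). The 11 were Trib3, Asns, Pycr1, Slc1a4, Gars, Yars, Chac1, Vldlr, Slc7a11, Nupr1 and Aars. The members were chosen from knowledge of ATF4 and its targets, so a higher share than over all promoters was likely from the choice itself. A match of letters is a description and shows no binding. Shown here are the 4 members with the motif whose levels passed the test below in 6 comparisons each and by the largest amounts. All 4 lie on the minus strand and are read 5′ to 3′ along the gene, with the motif in capitals. Trib3 (chr2:152344028-152344057) holds it in reverse orientation at bases 15 to 22 after the start, and Slc1a4 (chr11:20332699-20332728) holds it in reverse across the start, so 30 bases are given for each. For Asns (chr6:7693210-7693459) and Pycr1 (chr11:120643749-120643998), the 250 bases before the start are given, with the motif 23 to 16 and 103 to 96 bases before it.
Trib3: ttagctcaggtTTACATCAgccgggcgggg
Slc1a4: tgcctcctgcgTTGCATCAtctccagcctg
Asns: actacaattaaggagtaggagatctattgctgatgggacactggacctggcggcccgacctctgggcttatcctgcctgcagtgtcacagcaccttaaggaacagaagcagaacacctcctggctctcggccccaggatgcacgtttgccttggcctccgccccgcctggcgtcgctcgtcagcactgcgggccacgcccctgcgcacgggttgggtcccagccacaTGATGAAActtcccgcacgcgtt
Pycr1: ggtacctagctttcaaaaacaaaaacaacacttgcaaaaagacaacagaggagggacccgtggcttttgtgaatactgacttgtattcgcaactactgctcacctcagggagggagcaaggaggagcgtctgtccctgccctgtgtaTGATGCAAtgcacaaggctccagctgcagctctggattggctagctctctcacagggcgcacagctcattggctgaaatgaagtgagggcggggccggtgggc

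Summed over the set, the members stood highest in primed cells. The 38 members had a summed level of 6333.4 to 9669.5 TPM in EpiSC. In kEpiSC it was 7787.0 to 8064.8 TPM and 7033.4 to 7832.4 in the 4 WT and JunKO libraries before the transition. The sums were 4959.2 to 6194.1 TPM in ESC and 3917.0 to 5120.0 in kiPSC. They were lowest on PNT day 3, at 2886.8 and 3046.9 TPM without the inhibitor. In kEpiSC the most abundant members were Eif4ebp1, which encodes the translation repressor 4E-BP1 (837.22 and 862.57 TPM), Gars, the glycyl-tRNA synthetase (539.04 and 552.67), and Sars, the seryl-tRNA synthetase (512.58 and 570.07). Slc7a11, the cystine and glutamate exchanger, was the least abundant at 1.86 and 1.96 TPM. Atf4 (chr15:80255184-80257541, plus strand, mm10) was itself abundant, between 225.29 and 717.55 TPM in all 38 libraries.

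**Figure D1:**
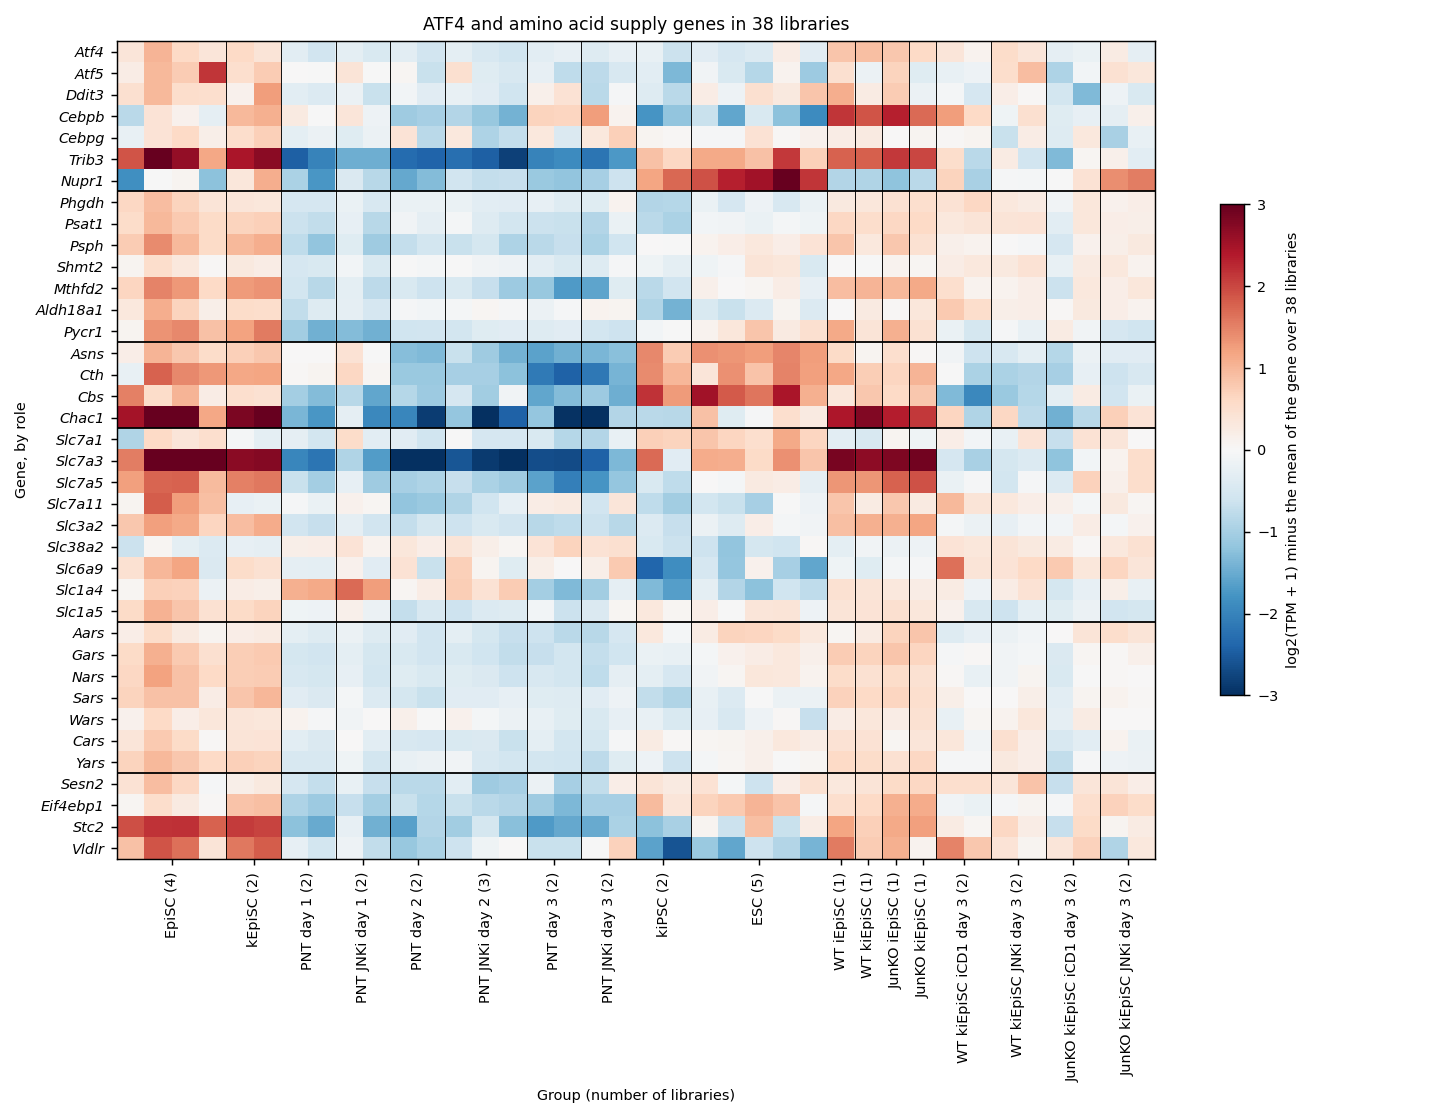
Heat map of the 38 members (rows, by role) in 38 libraries (columns, by group), coloured by log2(TPM + 1) minus the gene's mean over all libraries, on a scale from -3 to 3. Most rows are above their mean in EpiSC, kEpiSC and the EpiSC-like cells and below it on PNT days 1 to 3, where the summed TPM was 2886.8 to 3450.9 without the inhibitor.

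The first comparison set naive ESC against primed EpiSC. Atf4 was lower in ESC, together with most transporters and serine enzymes, while Asns, Cbs, Nupr1 and Eif4ebp1 were higher. With edgeR's quasi-likelihood test at an adjusted p of 0.05, 25 of the 38 members were lower in ESC and 4 higher, against 23.8% and 27.1% of the 13923 genes tested. The median log2 fold change of the members was -0.75, and that of all genes tested was 0.03.

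Atf4 was at 282.16, 250.57, 268.30, 411.87 and 279.96 TPM in ESC and at 455.43, 717.55, 536.90 and 453.62 TPM in EpiSC. The groups did not overlap, and the log2 fold change was -0.85 ± 0.18 (SE, edgeR adjusted p = 0.00147, n = 5 and 4). Trib3, the pseudokinase that restrains ATF4 and is among its own targets, ran from 19.69 to 53.79 TPM in ESC and from 26.99 to 136.51 TPM in EpiSC. Its groups overlapped, with a log2 fold change of -1.24 ± 0.40 (edgeR adjusted p = 0.0196), and without EpiSC replicate 2 it was -0.69 with an adjusted p of 0.132. Nupr1, a small stress-induced nuclear protein, went the other way: it was at 43.76 to 120.06 TPM in every ESC library and at 2.33 to 11.73 TPM in EpiSC, a log2 fold change of 3.32 ± 0.47 (edgeR adjusted p = 8.02e-05). In all, 5 of the 7 regulators were lower in ESC and 1 was higher. The calls of Cebpb (-1.09) and Cebpg (-0.53) were lost, like that of Trib3, without EpiSC replicate 2 (edgeR adjusted p = 0.106 and 0.066), and also without ESC replicate 2 or EpiSC replicate 3 (0.0533 to 0.0885). By limma Cebpg was -0.13 (limma adjusted p = 0.588). Ddit3, which encodes CHOP, had a log2 fold change of -0.19 ± 0.29 and did not pass.

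Among the transporters 7 of 9 were lower in ESC and none was higher. The largest was Slc7a11, at 0.71 to 2.36 TPM in ESC and 2.59 to 10.94 TPM in EpiSC (-3.49 ± 0.44 on the log2 scale, edgeR adjusted p = 3.07e-05). Slc7a3, a carrier of arginine and lysine, was at 74.20 to 130.03 TPM in ESC and 144.15 to 549.64 TPM in EpiSC. Its log2 fold change was -2.02 ± 0.38, and those of the large neutral amino acid carrier Slc7a5 and the glycine carrier Slc6a9 were -1.44 ± 0.18 and -1.54 ± 0.32. Every ESC library lay under every EpiSC library for the other named transporters, whereas the Slc6a9 groups overlapped.

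Of the serine, folate and proline enzymes 5 of 7 were lower and none higher, and of the synthetases 5 of 7 were lower and none higher. Aars, Cars, Pycr1 and Shmt2 were the 4 that did not pass. Chac1, which degrades glutathione, was at 6.80 to 17.39 TPM in ESC and 21.18 to 176.89 TPM in EpiSC (-2.97 ± 0.46). The lipoprotein receptor gene Vldlr and the secreted glycoprotein gene Stc2 had log2 fold changes of -3.08 ± 0.31 and -2.10 ± 0.30. Asns, which makes asparagine from aspartate, was at 728.82 to 839.27 TPM in ESC and 350.48 to 613.88 TPM in EpiSC, and rose by 0.66 ± 0.15 on the log2 scale (edgeR adjusted p = 0.00203). Cbs (1.09 ± 0.36) and Eif4ebp1 (0.57 ± 0.21) were higher with overlapping groups. Eif4ebp1 turned to -0.28 (edgeR adjusted p = 0.431) with ESC replicate 5 as the only ESC library, and its adjusted p was 0.053 to 0.119 without any single ESC library of replicates 1 to 4 or without EpiSC replicate 1, 3 or 4. Cbs gave 0.0504 to 0.0664 without ESC replicate 4, EpiSC replicate 2 or EpiSC replicate 4. With ESC replicate 5 alone, Cbs was 0.15 (edgeR adjusted p = 0.842) and Asns 0.56 (0.128), so Nupr1 was then the 1 member called higher. Without ESC replicate 5, the library with the fibroblast transcripts, 26 members were lower and 4 higher, and without EpiSC replicate 4 the counts were 27 and 2. The number called was 25 to 30 when single libraries were left out, and it was 23, of them 22 lower, with ESC replicate 5 alone, the ESC library whose length values were like those of EpiSC.

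Few members passed between the lines of the same state. Between kEpiSC and EpiSC, edgeR called none of the 38 members, with 4 at an unadjusted p under 0.05, 1 called by DESeq2 and 0 by limma, against 1.26% of all genes. Atf4 was at 539.14 and 465.83 TPM in kEpiSC, inside the range of EpiSC, with a log2 fold change of -0.03 ± 0.23. The member that DESeq2 called was Slc7a11 (-1.86, DESeq2 adjusted p = 0.0206), which edgeR gave as -1.83 ± 0.55 with an adjusted p of 0.13. Between kiPSC and ESC, 16 members were at an unadjusted p under 0.05, a cut for which no share of all genes is given here. At the adjusted threshold 1 member was called, against 0.144% of all genes, and 1 was called by DESeq2 and by limma alike. It was Psat1, the aminotransferase of serine synthesis, at 186.70 and 168.13 TPM in kiPSC and 281.68 to 314.34 TPM in ESC (-0.79 ± 0.13, edgeR adjusted p = 0.0285). Its adjusted p was 0.0556 to 0.48 without ESC replicate 1, 2 or 4 or either kiPSC library. The members' median was -0.40 and 35 of 38 estimates were below 0, while the median of all genes was -0.002. Atf4 had a log2 fold change of -0.19 ± 0.22 there.

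More members passed the test on the first day of the primed to naive transition than in any other comparison here. On day 1 in iCD1, 33 of 38 members were lower than in kEpiSC and 2 were higher by edgeR, against 23.1% and 23.2% of the 14892 genes tested. The median log2 fold change of the members was -1.34 and that of all genes tested was 0. All 7 serine, folate and proline enzymes, all 7 synthetases, all 4 asparagine, cysteine and glutathione enzymes and all 4 growth, secreted and surface genes fell. So did 6 of 7 regulators and 5 of 9 transporters. Markers moved on this day as well: fibroblast genes summed to 18.45 to 23.14 TPM in kEpiSC and 70.02 to 71.48 TPM on day 1. These genes did not move together. Pdgfrb went from 1.29 and 1.34 TPM to 22.87 and 27.89 TPM, and Col1a2, Thy1, Dcn and Lum were higher too. Col1a1 went from 3.33 and 3.25 TPM to 1.19 and 1.89 TPM, Postn was lower too, and Col3a1 overlapped. Primed genes summed to 963.83 to 1135.08 TPM in kEpiSC and 2226.22 to 2358.10 TPM on day 1. Naive genes summed to 8.42 to 11.47 TPM and 31.77 to 36.40 TPM. Pou5f1 and Sox2 summed to at least 2048.66 TPM in kEpiSC and at most 888.95 TPM on day 1. Their part in the members' change was not tested.

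Among the regulators, Atf4 was at 539.14 and 465.83 TPM in kEpiSC and at 283.97 and 238.91 TPM on day 1. Both day 1 libraries lay under both kEpiSC libraries, a 2.09-fold fall (-1.06 ± 0.15 on the log2 scale, edgeR adjusted p = 2.88e-05, n = 2 and 2). Trib3 fell much further, from 67.41 and 80.76 TPM to 1.31 and 2.14 TPM, or 44.6-fold (-5.48 ± 0.34, edgeR adjusted p = 9.58e-09). It had the largest change of any member on that day. Trib3 had 1129 and 1333 expected counts in kEpiSC and 11 and 19 on day 1, so the low side rests on few reads. Nupr1 went from 14.06 and 24.23 TPM to 5.15 and 2.54 TPM (-2.58 ± 0.39). Ddit3, Cebpb and Cebpg, the last a C/EBP partner of ATF4, also fell, by 1.25, 1.03 and 1.22 on the log2 scale. Ddit3 and Cebpb, like Sesn2, a leucine sensor of the mTORC1 pathway, no longer passed without kEpiSC replicate 2 or without PNT day 1 replicate 2 (edgeR adjusted p = 0.0637 to 0.245). Atf5, a close relative of Atf4, had -0.78 ± 0.34 and did not pass.

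Chac1 was at 69.57 and 83.41 TPM in kEpiSC and at 2.85 and 2.00 TPM on day 1, a 34.1-fold fall (-5.09 ± 0.78, edgeR adjusted p = 8.20e-05). Its expected counts were 948 and 1130 in kEpiSC and 19 and 14 on day 1, so the low side rests on few reads. Asns (495.51 and 530.51 to 304.80 and 304.46 TPM), Cth, which releases cysteine from cystathionine (144.53 and 146.83 to 65.07 and 67.25 TPM), and Cbs, which makes cystathionine (22.79 and 22.07 to 7.36 and 5.81 TPM), fell less. Their log2 fold changes were -0.94 ± 0.21, -1.34 ± 0.20 and -1.87 ± 0.33.

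In serine and proline synthesis the largest falls were those of the proline enzyme Pycr1, from 89.46 and 113.87 TPM to 18.05 and 13.39 TPM (-2.83 ± 0.18), and of the mitochondrial folate enzyme Mthfd2, from 248.62 and 261.99 TPM to 69.28 and 56.96 TPM (-2.17 ± 0.28). Psph, the phosphatase that ends serine synthesis, fell by 2.13 ± 0.20. The range over all 7 enzymes was -2.83 to -0.87, the smallest being Shmt2. None of these enzymes had overlapping groups, which 2 libraries against 2 often show without a change. The 7 synthetases lay closer together, from -1.45 for Gars to -0.40 for Wars, whose adjusted p by edgeR was 0.0552 to 0.111 when any of the 4 libraries was left out.

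The transporters did not move together on day 1. Slc7a3 fell 32.3-fold, from 327.62 and 336.82 TPM to 11.94 and 9.93 TPM (-5.01 ± 0.53, edgeR adjusted p = 2e-06). Slc7a5 and Slc3a2, the light and heavy chains of a shared exchanger, fell by 2.53 ± 0.25 and 1.79 ± 0.13. Slc6a9 and the glutamine carrier Slc1a5 fell too. By contrast Slc1a4, a carrier of alanine, serine and cysteine, rose from 64.30 and 61.68 TPM to 115.87 and 122.11 TPM (0.79 ± 0.20, edgeR adjusted p = 0.00521). Slc38a2, another neutral amino acid carrier, rose by 0.32 ± 0.12, from 117.01 and 115.10 TPM to 156.40 and 159.13 TPM, though its adjusted p was 0.104 to 0.146 when any of the 4 libraries was left out. Slc7a1 (-0.36 ± 0.26) and Slc7a11 (0.02 ± 0.40) did not pass, and their groups overlapped. Of the remaining group, Stc2 fell from 39.29 and 37.12 TPM to 3.0 and 2.27 TPM (-3.83 ± 0.33), Vldlr by 2.17 ± 0.22, Eif4ebp1 by 2.00 ± 0.17 and Sesn2 by 0.99 ± 0.30. Leaving out single libraries gave 30 to 33 members called on day 1.

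**Figure D2:**
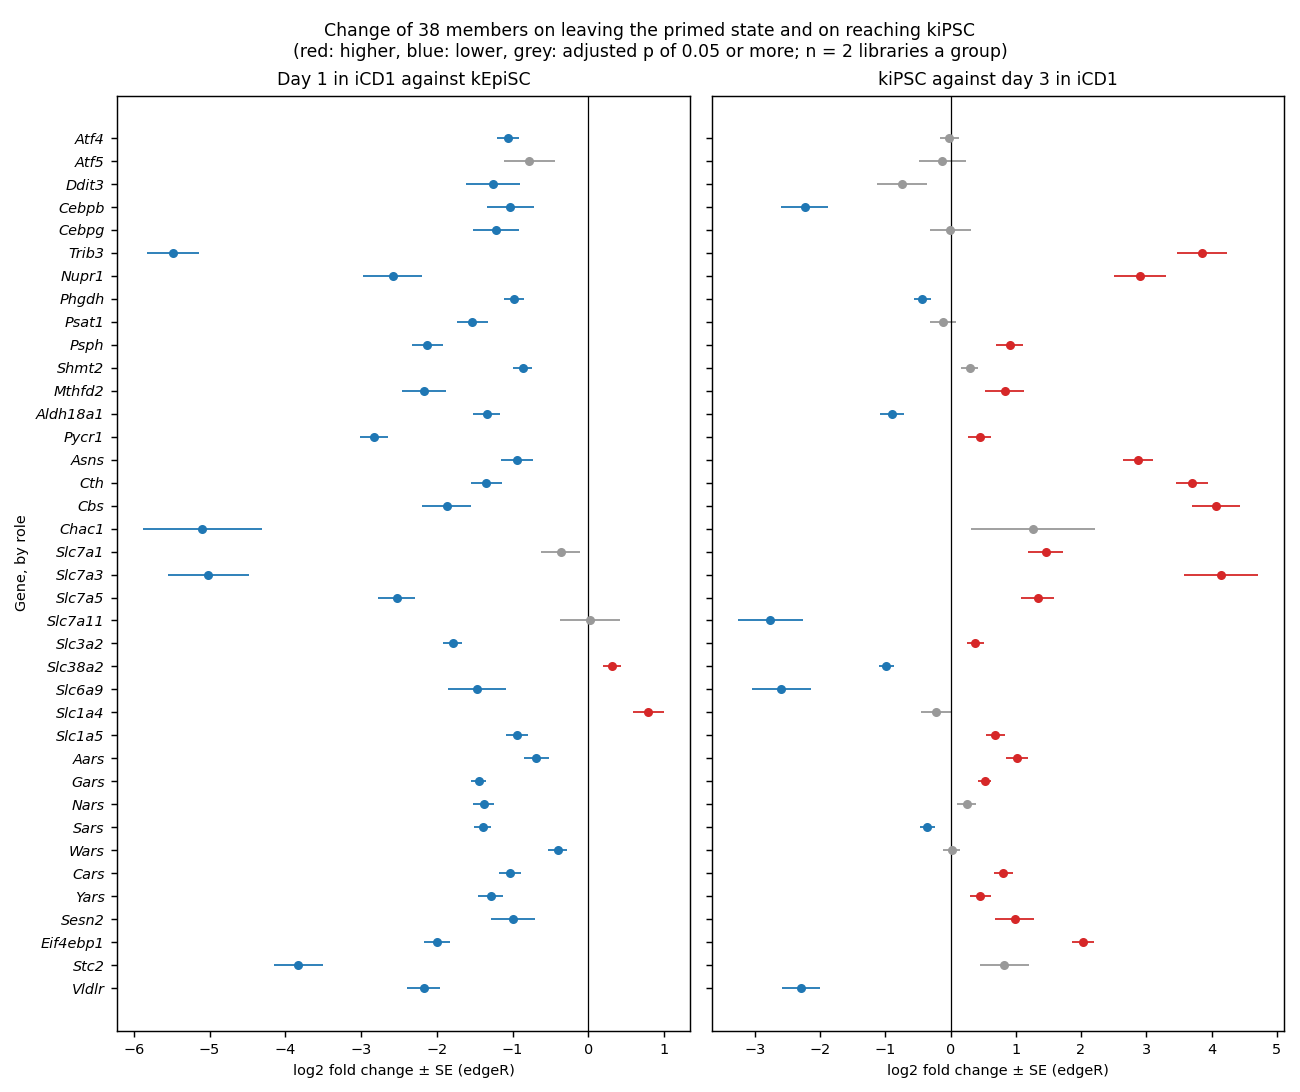
Log2 fold change with its standard error (edgeR) of each member, day 1 in iCD1 against kEpiSC on the left and kiPSC against day 3 in iCD1 on the right, with 2 libraries a group; red marks higher, blue lower and grey an adjusted p of 0.05 or more. On the left 33 members are blue and 2 red, and on the right 19 are red and 8 blue, with Atf4 at -0.02.

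After day 1 fewer members were called, 9 of 38 at each of the next steps. From day 1 to day 2, edgeR called 3 members higher and 6 lower, against 7.1% and 9.38% of all genes, and from day 2 to day 3 it called 2 higher and 7 lower, against 6.13% and 6.1%. At an unadjusted p under 0.05 there were 12 and 16 members, a cut for which no share of all genes is given here. The members' median changes were 0.05 and -0.24. Atf4 was at 285.89 and 239.95 TPM on day 2 and at 285.78 and 298.45 TPM on day 3. Its log2 fold changes were 0.05 ± 0.15 and 0.01 ± 0.15 (edgeR adjusted p = 0.885 and 0.992), so a change past its error was not seen after day 1. Trib3 stayed between 1.35 and 2.36 TPM on both days, on 4 to 13 expected counts.

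Cth and Slc1a4 fell at both of these steps, and Asns at the first. Asns was at 125.64 and 120.20 TPM on day 2 and 98.65 and 110.77 TPM on day 3, with a fall of 1.19 ± 0.22 from day 1 to day 2 and a later change of -0.48 ± 0.22 that did not pass. Cth was at 28.82 and 28.74 TPM on day 2 and 13.81 and 10.97 TPM on day 3, and fell at both steps, by 1.20 ± 0.22 and then by 1.23 ± 0.25. Slc1a4, which had risen on day 1, fell by 0.93 ± 0.21 to 56.98 and 63.94 TPM and by 1.48 ± 0.22 to 26.46 and 21.08 TPM (edgeR adjusted p = 0.00564 and 0.000755). Its day 1 libraries were thus the highest of the course and its day 3 libraries the lowest of the days in iCD1. Slc7a5, Mthfd2, Eif4ebp1, Wars and Shmt2 also fell from day 2 to day 3, by 1.03, 1.04, 0.58, 0.54 and 0.49.

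Cebpb and Slc7a11 dipped on day 2 and came back on day 3. Cebpb, a C/EBP factor that is itself an ATF4 partner, was at 16.99 and 13.80 TPM, then 6.14 and 6.46 TPM, then 22.66 and 22.15 TPM (-1.26 ± 0.35 and 1.70 ± 0.35). Slc7a11 was at 2.34 and 1.94 TPM, then 0.49 and 0.56 TPM, then 2.94 and 3.08 TPM (-2.26 ± 0.49 and 2.46 ± 0.49, edgeR adjusted p = 0.00448 and 0.00492). In neither gene did the day 2 libraries overlap with those before or after. The Slc7a11 values rest on 10.95 and 14.07 expected counts on day 2. Vldlr fell by 0.89 ± 0.24 from day 1 to day 2, while Pycr1, Aldh18a1 and Shmt2, enzymes of proline and serine metabolism, rose by 0.80, 0.59 and 0.49.

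These steps were the least stable of the course. Leaving out single libraries left 3 to 5 members called from day 1 to day 2 and 2 to 7 from day 2 to day 3. Asns and Cth stayed called from day 1 to day 2 without any of the 4 libraries, and Slc1a4 from day 2 to day 3. Without PNT day 2 replicate 1, 3 members were called from day 1 to day 2 and 2 from day 2 to day 3, when Slc7a11 gave -2.05 and 2.24 (edgeR adjusted p = 0.0606 and 0.0703) and Cebpb gave -1.23 and 1.66 (0.118 and 0.0625). Without PNT day 3 replicate 2, 3 members were called from day 2 to day 3 and Cth gave -1.10 with an adjusted p of 0.0642. Without PNT day 2 replicate 2, 4 were called from day 1 to day 2 and 5 from day 2 to day 3, and without either day 1 library 5 were called.

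**Figure D3:**
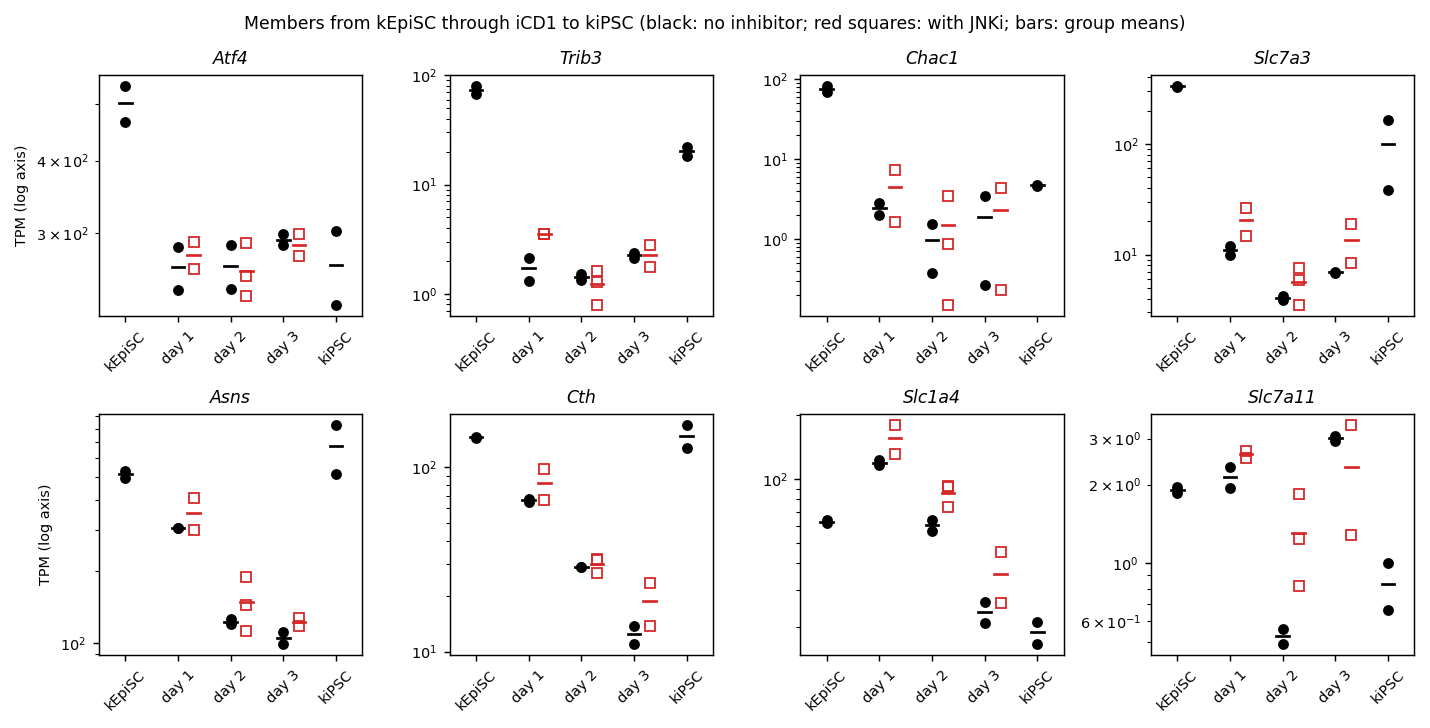
TPM of Atf4, Trib3, Chac1, Slc7a3, Asns, Cth, Slc1a4 and Slc7a11 in each library from kEpiSC through PNT days 1 to 3 to kiPSC, on log axes, with black points for iCD1 alone and red squares for iCD1 with JNKi. Trib3 drops from 67.41 and 80.76 TPM to at most 2.36 TPM without the inhibitor and is at 21.93 and 18.26 TPM in kiPSC, and the red squares lie among or close to the black points.

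From day 3 to kiPSC 19 of the 38 members rose, without a matching gain in Atf4. By edgeR these 19 were higher than on PNT day 3 and 8 were lower, against 29.3% and 28.6% of all genes, with a median of 0.45 (0.003 for all genes). Atf4 was at 302.47 and 225.29 TPM, a log2 fold change of -0.02 ± 0.15 (edgeR adjusted p = 0.914). Of the 33 members that had fallen on day 1, 18 were among these 19. That is 54.5% of the 33, where the share was 39.4% over all 3434 genes that fell on day 1, and 94.7% of the 19, in a set of which 33 of 38 had fallen. Fibroblast genes summed to 122.47 TPM in kiPSC replicate 1 and 44.69 TPM in replicate 2, against 93.11 to 105.64 TPM on day 3 and 18.45 to 23.14 TPM in kEpiSC. The genes behind these sums differed. Pdgfrb was at 34.93 and 34.40 TPM on day 3 and at 2.97 and 4.99 TPM in kiPSC. Dcn was at 0.33 and 0.0 TPM on day 3 and at 4.97 and 0.95 TPM in kiPSC. The part of these genes was not tested. Without kiPSC replicate 1, 16 members were higher and 8 lower than on day 3.

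Gains were large in the cysteine and asparagine branch. Cbs went from 4.73 and 5.81 TPM on day 3 to 74.04 and 39.53 TPM (4.07 ± 0.37, edgeR adjusted p = 1.74e-07), Cth from 13.81 and 10.97 TPM to 170.36 and 127.67 TPM (3.69 ± 0.24), and Asns from 98.65 and 110.77 TPM to 830.08 and 516.05 TPM (2.87 ± 0.23). No kiPSC library overlapped with day 3 for any of these genes, which 2 libraries a group often show without a change. Chac1, at 3.47 and 0.27 TPM on day 3 and 4.73 and 4.65 TPM in kiPSC, did not pass (1.26 ± 0.95).

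Trib3 rose to 21.93 and 18.26 TPM (3.86 ± 0.38) and Nupr1 from 4.48 and 4.23 TPM to 26.01 and 38.25 TPM (2.90 ± 0.41). Slc7a3 rose to 162.93 and 38.59 TPM, libraries that differ widely, with a log2 fold change of 4.14 ± 0.57 (edgeR adjusted p = 1.49e-05). Slc7a1, Slc7a5, Slc1a5 and Slc3a2 were also higher. On the other side stood Slc7a11 (-2.76 ± 0.50), Slc6a9 (11.80 and 10.45 to 1.18 and 2.14 TPM, -2.59 ± 0.45), Vldlr (-2.29 ± 0.29), Cebpb (22.66 and 22.15 to 3.35 and 5.57 TPM, -2.24 ± 0.36) and Slc38a2. The other members that fell were Aldh18a1, Phgdh and Sars. Eif4ebp1, Aars, Cars, Gars and Yars were among those that rose, by 0.46 to 2.03. Between 22 and 25 members were called when single libraries were left out. Pycr1, Slc3a2, Yars, Mthfd2, Sesn2, Phgdh and Sars each failed to pass without at least 1 of the 4 libraries (edgeR adjusted p = 0.069 to 0.271).

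Set against the starting kEpiSC, most members were lower in kiPSC. By edgeR 30 were lower and 2 higher, against 29.2% and 28.2% of all genes, with a median of -1.29 (-0.03 for all genes). This comparison shares the kEpiSC libraries with that of day 1. Atf4 fell by 1.03 ± 0.15, with both kiPSC libraries under both kEpiSC libraries (edgeR adjusted p = 2.07e-05). All 7 serine, folate and proline enzymes and 8 of 9 transporters were lower. The largest falls were those of Vldlr, from 29.24 and 34.58 TPM to 2.32 and 0.69 TPM (-4.89 ± 0.27), Chac1 (-4.13 ± 0.73), Stc2 (-3.46 ± 0.32), Slc6a9 (-3.10 ± 0.44) and Cebpb (-2.83 ± 0.35). Slc7a11, Slc7a5, Mthfd2, Trib3 and Sars followed, with log2 fold changes of -2.54, -2.29, -2.15, -1.98 and -1.90. Cbs (1.20 ± 0.30) and the cationic carrier Slc7a1 (0.75 ± 0.26) were higher. Neither passed without kiPSC replicate 1 (edgeR adjusted p = 0.0726 and 0.0694), nor did Slc7a1 without kEpiSC replicate 2 (0.116). Without kiPSC replicate 1, the library with more fibroblast transcripts, 31 members were lower and 0 higher. The 6 members that did not pass were Asns (0.25 ± 0.21), Cth (-0.08 ± 0.20), Eif4ebp1 (-0.27 ± 0.16), Aars (-0.22 ± 0.16), Sesn2 (-0.02 ± 0.29) and Nupr1 (0.57 ± 0.32).

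Other genes of the same pathways, taken from 10 further lists, were counted in the same fits. They are read here beside the shares of all genes, on day 1 23.2% higher and 23.1% lower. On that day the 13 other cytosolic tRNA synthetases gave 9 lower and 0 higher by edgeR, with a median of -0.34, and were led by Lars (-1.38), Iars (-1.28) and Mars (-1.09), which charge the tRNAs of leucine, isoleucine and methionine. The 16 mitochondrial synthetases gave 5 lower and 2 higher. The 16 other serine, glycine and folate enzymes gave 6 lower and 4 higher, with Aldh1l2 at -2.37, Mthfd1 at -1.90 and Tdh, the threonine dehydrogenase, at 1.23. Of 17 other amino acid transporters tested, 5 were lower and 6 higher, with Slc38a3 at -3.50, Slc43a2 at -2.25 and Slc1a3 at -1.95.

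Genes that act above or beside ATF4 gave calls in both directions, in counts of a few genes each. Among 8 genes for eIF2 kinases, eIF2 subunits and phosphatase subunits, 2 were higher on day 1 and 1 lower: Eif2ak2, the double-stranded RNA sensor PKR, at 1.69 ± 0.15, Eif2ak1, the haem-regulated kinase, at 1.04 ± 0.15, and Ppp1r15b at -0.49 ± 0.11. The 14 genes of the unfolded protein response gave 5 higher and 2 lower, with Herpud1 at -1.47. The 12 genes of amino acid sensing above mTORC1 gave 1 higher and 3 lower, with Ddit4 at -2.33. Glutathione and NRF2 genes gave 2 higher and 3 lower of 10, glutamine, aspartate, proline and arginine enzymes 3 higher and 5 lower of 13, and other ATF and C/EBP family factors 2 higher and 3 lower of 7, with Jdp2 at -3.21 and Atf3 at -1.29.

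Against PNT day 3, where 29.3% of all genes were higher and 28.6% lower in kiPSC, several of these lists gave more calls on the higher side. Glutathione and NRF2 genes gave 7 higher and 0 lower of 10 against day 3 (median 1.39), with the glutathione synthetase Gss at 2.80. Glutamine, aspartate, proline and arginine enzymes gave 10 higher and 3 lower of 13 with Ass1 at 5.02, and other serine, glycine and folate enzymes 9 higher and 2 lower of 16 with Tdh at 6.08. Other cytosolic synthetases gave 7 higher and 1 lower of 13, and genes of the unfolded protein response 7 higher and 1 lower of 14. The remaining lists were less one-sided. Other amino acid transporters gave 7 higher and 7 lower of 17, mitochondrial synthetases 4 higher and 1 lower of 16, genes of amino acid sensing above mTORC1 3 higher and 3 lower of 12, genes for eIF2 kinases and subunits 1 higher and 3 lower of 8, and other ATF and C/EBP family factors 2 higher and 2 lower of 7. Atf3, a stress factor of the ATF family, was at -5.95 ± 0.56.

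JNKi was compared with iCD1 alone on each day. edgeR called none of the 38 members on day 1, 2 or 3, against 0%, 0.00672% and 0% of all genes. At an unadjusted p under 0.05 there were 2, 4 and 2 members, and DESeq2 and limma each called 0. No share of all genes is given for the unadjusted cut. Atf4 with JNKi was at 289.25 and 260.02 TPM on day 1, at 288.35, 252.68 and 233.20 TPM on day 2, and at 273.39 and 299.14 TPM on day 3. Its log2 fold changes were 0.06 ± 0.15, -0.03 ± 0.13 and 0.01 ± 0.15 (edgeR adjusted p = 1 on each day), and its groups overlapped on every day.

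The members' estimates spread from -0.46 (Cbs) to 0.97 (Nupr1) on day 1, from -0.20 (Mthfd2) to 1.09 (Slc7a11) on day 2 and from -0.65 (Ddit3) to 0.84 (Slc7a3) on day 3. Of 38 estimates, 31, 20 and 32 were above 0, with medians of 0.17, 0.04 and 0.17. The share of all genes above 0 was not counted, so these signs are no measure of a shift of the set. The summed TPM of the members was 4253.3 and 3309.2 with JNKi on day 1 and 2869.5 and 3546.2 on day 3, so the libraries of a group differed by more than the group means did. On day 1, replicate 1 with JNKi held the higher value for 36 of 38 members, where it did so for 58.9% of 14216 expressed genes, and on day 3 replicate 3 with JNKi did so for 32 of 38 members (47%). Slc1a4 was at 179.42 and 130.92 TPM with JNKi against 115.87 and 122.11 TPM on day 1. On day 2 it was at 91.37, 73.87 and 92.69 TPM against 56.98 and 63.94 TPM. Its estimates were 0.36 ± 0.20 and 0.51 ± 0.19 without overlap, and neither passed. With so few libraries a lack of overlap is common for unchanged genes too. The difference between the inhibitor's effects on day 3 and day 1 was called for 0 members (2 at an unadjusted p under 0.05, DESeq2 0, limma 0) and for 0% of all genes.

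The last experiment repeated the transition from EpiSC-like cells and asked about the deletion of Jun. The primed state of the 4 libraries before the transition was taken from markers: naive genes summed to 30.49 to 43.58 TPM and primed genes to 1651.73 to 2148.99 TPM. Each genotype had 1 iEpiSC and 1 kiEpiSC library there, and these entered together with a term for the line. On day 3 in iCD1, edgeR called 21 members lower and 2 higher in WT, against 16.1% of all genes in each direction. In JunKO it called 24 lower and 1 higher, against 13.3% and 15.8%. The medians were -0.61 and -0.72.

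Atf4 was at 633.79 and 665.50 TPM in primed WT and 456.71 and 379.91 TPM on day 3, and at 620.43 and 538.03 TPM in primed JunKO and 292.77 and 309.85 TPM on day 3. It fell in both, by 0.72 ± 0.19 and by 0.98 ± 0.19 (edgeR adjusted p = 0.0144 and 0.00358). Trib3 fell by 2.23 ± 0.45 in WT, from 41.77 and 42.38 TPM to 17.14 and 6.12 TPM, and by 2.70 ± 0.45 in JunKO, from 53.82 and 49.29 TPM to 3.97 and 11.97 TPM. Slc7a3 fell by 3.55 ± 0.32 and 3.52 ± 0.32, from at least 324.12 TPM to at most 46.23 TPM over both genotypes. Chac1 fell by 2.75 ± 0.52 and 3.67 ± 0.58. Every day 3 library of these genes lay under every primed library of its genotype, which 2 libraries a group often show without a change.

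All 21 members that fell in WT were among the 33 of 38 that fell on PNT day 1. Most of any 21 members would lie there by the make-up of the set. Over all genes, 1261 of the 2027 that fell in WT had fallen on PNT day 1. The 21 members were 63.6% of the 33. Over all genes that fell on PNT day 1 and were tested here the share was 39.7%. The genotypes shared 20 falling members, 95.2% of the WT list and 83.3% of the JunKO list, against 64.3% and 77.6% over all genes. Cbs passed in WT (-2.89 ± 0.31), where JunKO gave -0.73 ± 0.26, and Ddit3, Psat1, Psph and Slc1a4 passed in JunKO, with WT at -1.05, -0.30, -0.50 and -0.45. These divisions were not firm. Cbs was called in JunKO with the replicate block (-0.91, edgeR adjusted p = 0.0198) and without JunKO day 3 replicate 2 (-1.09, 0.0233), limma called Ddit3 in WT (-0.96, limma adjusted p = 0.0339), and Slc1a4 was called in WT without the filter (0.026). The difference of these falls between genotypes was not tested. In both genotypes Slc7a5, Cth, Cebpb, Pycr1, Slc3a2 and 6 of 7 synthetases fell, Slc7a5 by 1.55 and 1.65 and Cebpb by 1.18 and 2.44. Stc2 and Mthfd2 fell as well, by 0.93 and 0.73 in WT and by 1.38 and 1.19 in JunKO. Slc6a9 rose by 1.57 ± 0.33 and Slc38a2 by 0.50 ± 0.12 in WT, and Nupr1 rose by 2.05 ± 0.66 in JunKO, from 4.14 and 5.80 TPM to 10.87 and 15.19 TPM (edgeR adjusted p = 0.0394).

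The primed side of these tests was thin. Without the WT iEpiSC or the WT kiEpiSC library, 6 members were called in WT, all lower, and without the JunKO iEpiSC or kiEpiSC library 7 were called in JunKO. Atf4 was then -0.87 and -0.55 in WT (edgeR adjusted p = 0.0748 and 0.244), and -0.81 in JunKO without iEpiSC (0.111). In WT without a day 3 library, 19 (replicate 1) or 16 (replicate 2) were called and Atf4 gave -0.59 (0.105) without replicate 2. In JunKO 15 were called without day 3 replicate 1 and 27 without replicate 2, and Nupr1 did not pass without any of the 4 libraries (0.064 to 0.292). Fibroblast genes summed to 10.83 to 19.87 TPM in the primed libraries and 108.83 to 135.70 TPM on day 3 in iCD1 over both genotypes. On day 3 in iCD1 Col3a1 was at 55.98 to 76.67 TPM and Pdgfrb at 13.65 to 35.11 TPM, while Dcn was at 0.0 TPM. The part of these genes was not tested.

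JunKO was then set against WT in each setting. In primed cells edgeR called none of the 38 members, against 0.357% of all genes, with 2 at an unadjusted p under 0.05, 1 called by DESeq2 and 0 by limma. On day 3 with JNKi it called 0, against 0.92%, with 7 at an unadjusted p under 0.05 and 0 by either other tool. On day 3 in iCD1 it called 1, against 1.7%, with 9 at an unadjusted p under 0.05, 2 called by DESeq2 and 1 by limma. The percentages are shares at the adjusted threshold and are no background for the unadjusted counts.

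The called member was Cbs, the cystathionine synthase, at 5.70 and 3.37 TPM in WT and 12.67 and 19.08 TPM in JunKO (2.14 ± 0.32, edgeR adjusted p = 0.0152). Its adjusted p was 0.0586 without JunKO day 3 replicate 2, 0.176 without WT day 3 replicate 1 and 0.0838 without WT day 3 replicate 2. Before the transition Cbs was at 20.43 and 28.69 TPM in WT and 24.45 and 28.58 TPM in JunKO (-0.02 ± 0.25), and with JNKi it was at 6.80 and 8.33 TPM and at 10.28 and 13.54 TPM (0.65 ± 0.29, edgeR adjusted p = 0.291). The day 3 cultures of the genotypes also differed in markers. In iCD1 the naive genes summed to 178.06 and 299.73 TPM in JunKO and 37.79 and 84.22 TPM in WT, and Pou5f1 and Sox2 to 276.50 to 480.50 TPM and 87.17 to 151.74 TPM. Cbs itself was at 34.06 to 95.01 TPM in ESC and 39.53 and 74.04 TPM in kiPSC. The part of these markers in the Cbs difference was not tested.

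Atf4 had estimates below 0 in JunKO in each setting, none of which passed: -0.20 ± 0.19 in primed cells, -0.46 ± 0.19 in iCD1 and -0.48 ± 0.19 with JNKi (edgeR adjusted p = 0.934, 0.328 and 0.248). In none of the settings did its JunKO and WT libraries overlap, with 424.47 and 296.05 TPM in JunKO and 519.71 and 453.61 TPM in WT under JNKi. With 2 libraries a group this is common without a change, and its share over all genes was not counted. Without JunKO replicate 1 with JNKi, Atf4 was -0.81 and passed (edgeR adjusted p = 0.0213), and without the filter on low counts it passed in iCD1 (0.035) and with JNKi (0.0158). Aars, the alanyl-tRNA synthetase, was the other way round. It was at 249.75 and 282.82 TPM in primed JunKO and 163.52 and 187.66 TPM in primed WT, at 157.72 and 205.83 against 119.57 and 131.87 TPM in iCD1, and at 226.73 and 206.61 against 138.32 and 149.04 TPM with JNKi. Its estimates were 0.53 ± 0.14, 0.62 ± 0.14 and 0.51 ± 0.14 with edgeR adjusted p = 0.151, 0.05 and 0.0971, none under the threshold before rounding. DESeq2 called it in primed cells (adjusted p = 0.0372) and in iCD1 (0.00942), and in iCD1 edgeR called it with the replicate block (0.0317) and without JunKO replicate 1 (0.80, 0.0268). Without the filter on low counts it passed in all 3 settings (0.000288 to 0.0105). Calls over all genes rose in that fit too, from 45 to 389 in primed cells, 215 to 822 in iCD1 and 116 to 1138 with JNKi.

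JNKi within each genotype moved no member past the threshold. edgeR called 0 in WT and 0 in JunKO, against 0.484% and 0.0476% of all genes, and DESeq2 and limma called 0. At an unadjusted p under 0.05 there were 8 and 5 members, a cut for which no share of all genes is given here. With 2 libraries a group, 0 calls do not show that no member changed. Markers did differ. In WT the naive genes summed to 37.79 to 84.22 TPM without JNKi and 206.92 to 301.51 TPM with it, and the primed genes to 191.12 to 215.34 and 518.44 to 555.96 TPM. In JunKO these sums were 178.06 to 299.73 and 303.93 to 504.60 TPM, and 272.60 to 676.61 and 857.85 to 1216.27 TPM. Atf4 had log2 fold changes of 0.21 ± 0.19 and 0.19 ± 0.19, and its libraries overlapped in both genotypes. The effect of JNKi in JunKO minus that in WT was called for 0 members (4 at an unadjusted p under 0.05, DESeq2 0, limma 0) and for 0% of all genes. For Cbs this difference was -1.49 ± 0.43 (edgeR adjusted p = 0.832) and for Atf4 it was -0.02 ± 0.27.

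**Figure D4:**
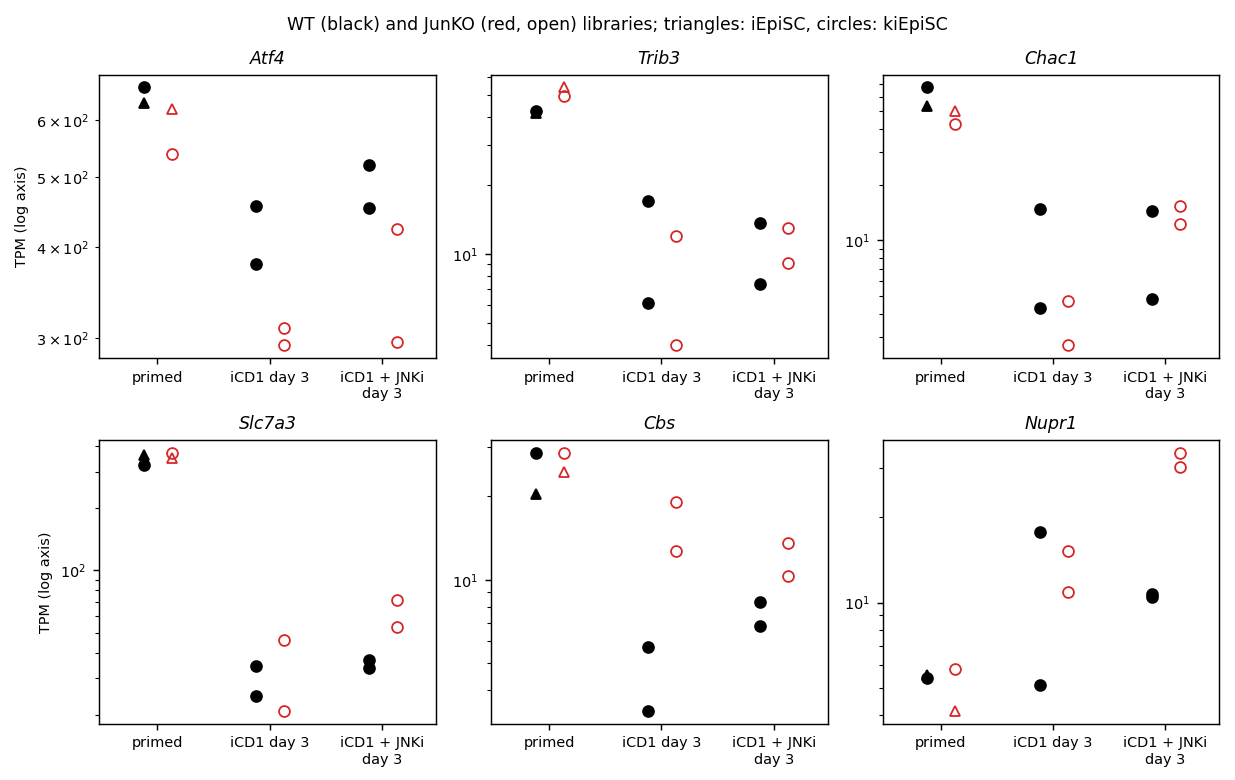
TPM of Atf4, Trib3, Chac1, Slc7a3, Cbs and Nupr1 in the 12 WT and JunKO libraries, before the transition and on day 3 in iCD1 without and with JNKi. Atf4 is at 538.03 to 665.50 TPM before the transition and 292.77 to 519.71 TPM on day 3, and Cbs on day 3 in iCD1 is at 3.37 and 5.70 TPM in WT and 12.67 and 19.08 TPM in JunKO.

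**Figure D5:**
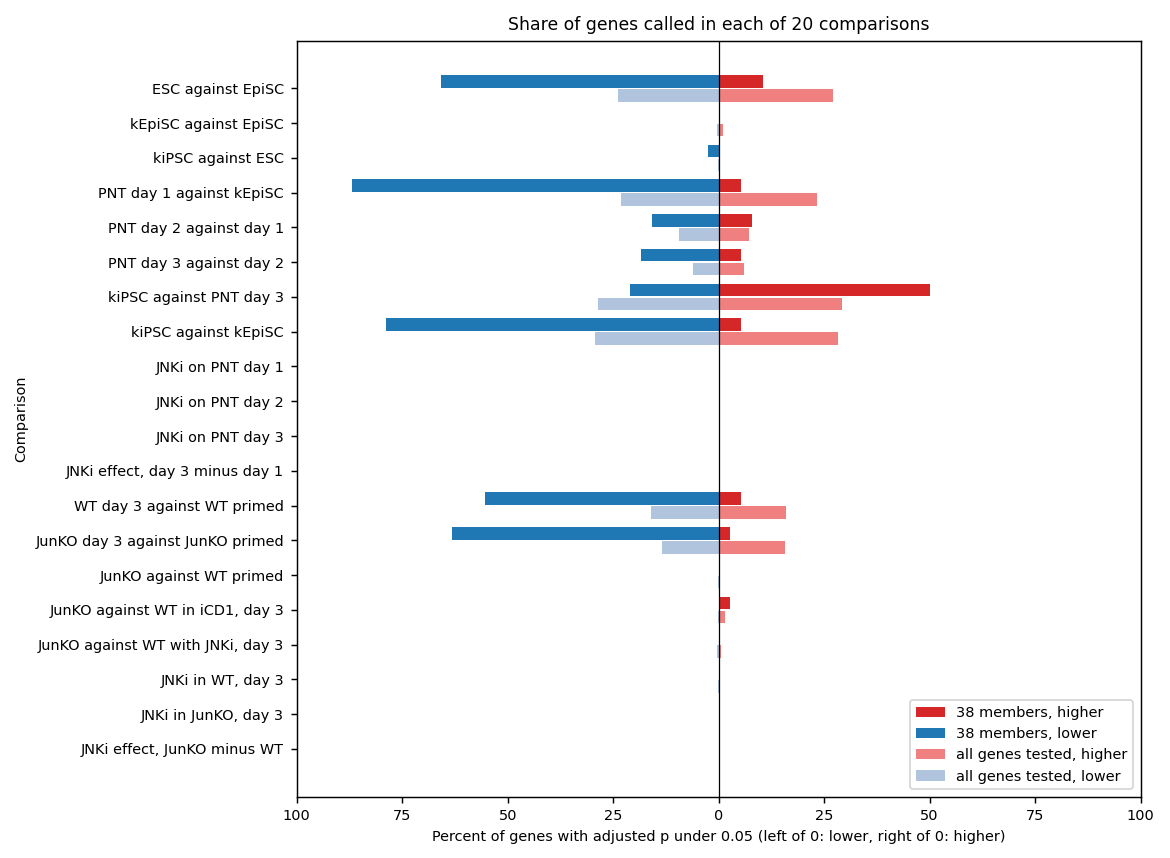
Percent of the 38 members and percent of all genes tested that edgeR called in each comparison, split by direction. Shares of members past those of all genes stand on the lower side on entering iCD1 (33 of 38 against 23.1% on PNT day 1) and in kiPSC against kEpiSC (30 of 38 against 29.2%). The bars for JNKi are at or near 0.

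Replicates of a group often differed in the members as a body. In EpiSC, replicate 2 had the highest TPM for 29 of 38 members, where it was highest for 18.5% of 14216 expressed genes, and replicate 4 had the lowest for 24 (18.5%). In kiPSC, replicate 1 was the higher for 31 members (48.8% of all genes), and on day 3 in iCD1 JunKO replicate 2 was the higher for 33 (49.1%). kiPSC replicate 1 also had the higher fibroblast sum, 122.47 against 44.69 TPM. EpiSC replicate 4 had the highest fibroblast sum of its group, 135.47 TPM against a lowest of 16.55. The summed TPM of the members in EpiSC was 6333.4, 9669.5, 8364.2 and 6541.4 in replicates 1 to 4.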

How the data were processed

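RNA was sequenced from 38 mouse libraries in 18 groups. The authors demultiplexed reads with bcl2fastq, aligned them with Bowtie2 to mm10 and quantified genes with RSEM (versions not given in the sources used here). The authors deposited RSEM's expected counts per gene and library, which are estimated counts that need not be whole, with the TPM and FPKM values RSEM derives from them. The study's methods also name a mapping-quality filter and removal of mitochondrial reads. Whether these steps were applied to the deposited counts is not stated. FPKM was not used. No gene ID was dropped, and 28756 of 29267 carried a symbol (the rest held 0.316% of counts). RSEM shares reads between similar genes, and the strand setting was not given.

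Expected counts were rounded and fitted with edgeR 4.0.16 (R 4.3.3; TMM, filterByExpr with a minimum count of 10, quasi-likelihood F test, Benjamini-Hochberg adjustment over all genes, threshold 0.05; each standard error was the size of the log2 fold change divided by √F). There were 3 fits: 13 libraries of ESC, EpiSC, kEpiSC and kiPSC, 17 libraries of the transition, and 12 WT and JunKO libraries. TPM served for levels. With 2 libraries a group a lack of overlap is common for unchanged genes too, and its share over all genes was not counted. DESeq2 1.42.0 on the counts and limma 3.58.1 on log2(TPM + 1) were alternatives. Scripts were tested on simulated counts. Where libraries of a group came from 1 culture, p-values measure technical spread only. Counts at an unadjusted p under 0.05 stand without the share of all genes at that cut. The adjusted shares are no background for them. Within groups no library duplicated another, as counts differed beyond sampling noise (chi-square per degree of freedom 4.16 to 38.89).

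The members, gene lists and tests were chosen with earlier results of these data known. Named in each comparison were the called members by size of log2 fold change, up to 10, Atf4 throughout, and up to 3 called genes of a further list. Other members given with values, and those in counts of 5 or fewer, were named after their values were seen.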

Additional observations from a re-analysis of the deposited data

Results flagged for a closer look

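In the groups of 4 and 5 libraries, EpiSC and ESC, each member's highest and lowest library was compared with the rest of its group by Dixon's criterion at 95%. Of 76 values for 38 members, 4 were flagged. Chance flags about 1 in 20 groups, so this count is near what chance alone gives. In ESC replicate 4, Atf4 was at 411.87 TPM, where the other 4 libraries lay between 250.57 and 282.16 TPM, so the gap was 0.804 of the group's range. In the same library Trib3 was at 53.79 TPM against 19.69 to 26.73 TPM in the others (0.794 of the range), and Aldh18a1, which opens proline synthesis, was at 78.87 TPM against 46.65 to 55.92 TPM (0.712). ESC replicate 4 was the highest of its group for 16 of 38 members, where it was highest for 16% of 14216 expressed genes. In EpiSC replicate 2, Ddit3 was at 35.9 TPM, with the other 3 libraries between 25.16 and 26.32 TPM (0.892). Whether these libraries differed by more than chance was not tested.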

How the results depend on the processing

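Scaling by DESeq2 size factors within edgeR kept every count of called members within 1.5 times its value, and the scalings moved the median of all genes by -0.0279 to 0.0402 on the log2 scale. Eif4ebp1 in ESC against EpiSC reversed to -0.275 with ESC replicate 5 alone. DESeq2 called 1 member in kEpiSC against EpiSC, 1 in JunKO against WT primed and 2 in JunKO against WT in iCD1, and limma called 5 from day 2 to day 3. Without a filter beyond 1 count, 0 members were called in kiPSC against ESC and 14 from day 2 to day 3. For JNKi the count was 1 on each of days 1, 2 and 3, 4 in WT and 3 in JunKO. For JunKO against WT it was 3 in primed cells, 8 in iCD1 and 6 with JNKi. Calls over all genes rose too without the filter. In JunKO against WT they went from 45 to 389 in primed cells, 215 to 822 in iCD1 and 116 to 1138 with JNKi. For JNKi they went from 61 to 792 in WT and from 6 to 717 in JunKO. On PNT days 1, 2 and 3 they went from 0, 1 and 0 to 54, 83 and 65, and from day 2 to day 3 from 1821 to 2339. In kiPSC against ESC they stayed at 20. A fit of all 38 libraries gave 4 in kEpiSC against EpiSC, 2 in kiPSC against ESC, 3 from day 1 to day 2, 3 from day 2 to day 3 and 0 in JunKO against WT in iCD1. In kiPSC against ESC, 0 were called with ESC replicates 3 to 5, which have no strain label, and 0 with ESC replicate 5 alone. The causes were not tested. Leaving out single libraries, where a lone library is assumed to vary like the other groups, gave 25 to 30 in ESC against EpiSC, 0 to 1 in kEpiSC against EpiSC and in kiPSC against ESC, 30 to 33 on day 1, 3 to 5 from day 1 to day 2, 2 to 7 from day 2 to day 3, 22 to 25 in kiPSC against day 3, 27 to 31 in kiPSC against kEpiSC, 6 to 19 in WT and 7 to 27 in JunKO on day 3. It gave 0 to 2 in JunKO against WT in iCD1 and with JNKi, 0 to 1 for JNKi in JunKO, and 0 to 0 in the other JNKi comparisons and in JunKO against WT primed. Replicate numbers shared between groups were not taken to pair the libraries: correlations of same-numbered deviations were -0.055 to 0.055 over the 4 pairs of ESC and EpiSC. Where there were 2 pairs they were -0.016 to 0.283, which leaves pairing unsettled there. With the replicate block, 0 members were called in kiPSC against ESC, 3 in JunKO against WT in iCD1 and 1 with JNKi, and the calls over all genes went from 116 to 537 there, from 45 to 152 in JunKO against WT primed, from 215 to 364 in iCD1, from 61 to 268 for JNKi in WT and from 6 to 162 for JNKi in JunKO. Depth limits Chac1, with 1 to 40 expected counts per library on PNT days, Trib3, with 4 to 24 there, and Slc7a11.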
